A study of Mus musculus with 18 samples.

Results

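The comparison described here sets livers of mice that ate a low-fat diet containing PFOS against livers of mice that ate the same diet without it. The differences rest on 6 of the 18 arrays of the series, chosen by their titles, with 3 control arrays and 3 PFOS arrays. Standard errors, intervals and p-values draw their spread from all 18 arrays. All groups were male C57BL6 mice that were 6 weeks old at the start, ate their diet freely for 12 weeks and were killed at 18 weeks of age. The low-fat diet took 10% of its kilocalories from fat. The control group ate this diet with no added compound, and the PFOS group ate it with PFOS mixed in. The labels give no dose of PFOS. The labels call the 3 arrays of a group biological replicates and do not say whether an array holds 1 liver or a pool. Besides entering the fit, other groups of the series serve below as points of reference. These are PFNA in the low-fat diet, and the control and PFOS groups on a high-fat diet. That diet took 45% of its kilocalories from fat, and each group has 3 arrays. A high-fat PFNA group of 3 arrays also entered the fit. The title of the series asks how diet bears on fatty liver under PFOS and PFNA.

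PFOS is a perfluorinated sulfonic acid that is hardly metabolised and collects in the liver. Perfluorinated acids resemble fatty acids and can activate PPARA, the nuclear receptor that raises the enzymes of fatty acid oxidation. They can also activate CAR and PXR, the receptors that raise cytochromes P450, conjugating enzymes and export pumps when foreign compounds reach the liver. NRF2, a transcription factor released under oxidative or electrophilic stress, shares part of that output, above all glutathione transferases and quinone reductase.

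All values are signals on the log2 scale, read as such from their range since no label states the base, and triplets are given in the order of replicates 1, 2 and 3. The median signal over all 34472 probes lay between 4.45 and 4.59 on the 6 arrays, and the arrays correlated with each other at 0.979 to 0.990. The array of PFOS replicate 3 stood apart. It differed from the mean of its mates by more than 1 log2 unit at 429 probes above and 231 below, against 69 to 214 above and 87 to 167 below for the other 5 arrays. On the first principal component of all 18 arrays, which held 17.9% of the variance, it scored 32.9. The high-fat PFOS arrays scored 27.8 to 38.6, and the other low-fat arrays lay between -22.9 and -10.3. The third high-fat PFNA array also scored high, at 32.4, while its mates scored -10.4 and -8.1. The high-fat controls lay between -15.9 and -8.2. Values without low-fat PFOS replicate 3 are given beside the results in which it set the level. Hepatocyte identity genes marked every sample as liver: their summed signal ran from 16.01 to 16.07 in the controls and from 15.86 to 16.04 with PFOS. None of the 12 measured differed at an adjusted p under 0.05. In 4 of the 12 every PFOS array lay below every control, against 7.36% of all genes.

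With PFOS, 97 probes were higher and 37 lower at an adjusted p under 0.05 (limma, Benjamini-Hochberg over all probes). That is 0.389% of the probes tested, 0.281% higher and 0.107% lower. Before adjustment, 4119 probes (11.9%) had a p under 0.05. All 134 had groups that did not overlap, which a call on the same arrays nearly entails. Over all probes, 7.58% had every PFOS array above every control and 8.12% had every PFOS array below. In 35 of the higher and 19 of the lower probes the difference exceeded 1 log2 unit. The 97 and 37 became 53 and 32 after quantile normalization and 159 and 27 after centring each array on its median, so the share of higher probes ran from 72.4% to 62.4% and 85.5% with the scaling. One array could decide the count. Without PFOS replicate 3 there were 119 higher and 141 lower probes, of which 85 belonged to the 134. Leaving out any other single array left between 22 and 48 calls. A fit to the 6 compared arrays alone called 5 higher and 1 lower probes, and a fit to the 9 low-fat arrays 26 and 3. Among the called genes named below, Cyp2b10, Cyp2c55 and Gsta4 alone kept their calls on the 6 arrays.

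The 134 probes named 98 genes, 81 higher and 17 lower. On a count of 1 probe for each of 22180 genes, 80 genes were higher (0.361%) and 17 lower (0.0766%). The same count put all 3 PFOS arrays above all 3 controls in 9.21% of genes and below them in 7.36%. Of the 37 lower probes, 20 carried no gene in the probe annotation. The largest named rises were drug-metabolising enzymes.

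Genes that CAR and PXR are known to raise had the highest median of the 40 gene lists. Of 46 listed, 40 were measured, 8 rose (20%, against 0.361% of all genes) and 0 fell. The median difference was 0.57, against 0.00 over all genes. In 14 of the 40 every PFOS array lay above every control and in 2 below, against 9.21% and 7.36% of all genes. The difference was above 0 in 31 of the 40. The lowest, -1.66, was that of Slco1a4, described below. The 8 that rose were Cyp2b10, Cyp2c55, Gstm3, Cyp2b9, Cyp3a44, Cyp3a11, Aldh1a7 and Abcc3. By role, 5 of 19 cytochromes P450, 1 of 5 other oxidising or hydrolysing enzymes, 1 of 9 conjugating enzymes and 1 of 7 pumps and growth genes rose. The median over these genes, taken on each PFOS array against the control mean, was 0.56, 0.65 and 0.11, so replicate 3 was the lowest. Without it 9 members rose and the median was 0.62. The count was 3 without PFOS replicate 1, 5 without PFOS replicate 2 and 4 without control replicate 1, 2 or 3, each left out alone.

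Cyp2b10, the cytochrome used as the standard read-out of CAR, measured 4.58, 3.81 and 4.17 in the controls and 9.59, 10.63 and 7.94 with PFOS. The groups were far apart, and replicate 3 was the lowest of the PFOS arrays. The difference was 5.20 ± 0.67 (SE, n = 3 per group; adjusted p = 0.00391, limma), the largest rise among the called probes. No fold is given for it, since the controls sat near the array median and the files carry no measure of background. The call held in all 15 alternative settings, with a highest adjusted p of 0.0456, as it did for Cyp2c55 and Gsta4.

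Cyp2c55, a cytochrome that oxidises arachidonic acid, behaved alike, with 3.87, 4.20 and 4.69 in the controls and 7.48, 8.43 and 6.85 with PFOS. Again no PFOS array came near a control. The difference was 3.33 ± 0.47 (SE; adjusted p = 0.00552, limma).

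Cyp2b9, a paralogue of Cyp2b10 that is more abundant in female liver, measured 7.93, 9.35 and 10.07 in the controls and 11.95, 11.30 and 11.66 with PFOS. Its control values spread more widely than its PFOS values, with no overlap. The difference was 2.52 ± 0.41 (SE; adjusted p = 0.0145, limma), a 5.74-fold rise. Cyp2b13, another close paralogue, measured 4.0, 3.98 and 3.45 in the controls and 7.95, 5.38 and 3.98 with PFOS. One PFOS array was high, one intermediate and replicate 3 at the control level, and the difference of 1.96 ± 1.0 (SE) missed the threshold (adjusted p = 0.461, limma). Probes of such close paralogues can share signal, and the sources used here do not say how the array separates them.

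The promoters of the 3 Cyp2b genes are shown because Cyp2b10 had the largest rise and its paralogues share most of its sequence there. Each line holds the 250 bases before the start of transcription from RefSeq (GRCm38.p6), all on the forward strand of chromosome 7. Capitals mark the bases at which Cyp2b9 and Cyp2b13 differ from each other.
Cyp2b10 (chr7:25897408-25897657): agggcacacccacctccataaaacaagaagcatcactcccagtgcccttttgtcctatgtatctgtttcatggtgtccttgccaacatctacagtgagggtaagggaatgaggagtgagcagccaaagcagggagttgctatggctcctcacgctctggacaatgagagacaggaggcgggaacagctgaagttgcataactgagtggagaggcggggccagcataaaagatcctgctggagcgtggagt
Cyp2b9 (chr7:26173159-26173408): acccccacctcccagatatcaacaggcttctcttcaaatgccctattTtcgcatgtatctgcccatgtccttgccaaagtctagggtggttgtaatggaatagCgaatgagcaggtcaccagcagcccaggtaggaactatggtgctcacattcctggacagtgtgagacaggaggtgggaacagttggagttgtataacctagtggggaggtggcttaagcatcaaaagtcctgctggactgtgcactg
Cyp2b13 (chr7:26061245-26061494): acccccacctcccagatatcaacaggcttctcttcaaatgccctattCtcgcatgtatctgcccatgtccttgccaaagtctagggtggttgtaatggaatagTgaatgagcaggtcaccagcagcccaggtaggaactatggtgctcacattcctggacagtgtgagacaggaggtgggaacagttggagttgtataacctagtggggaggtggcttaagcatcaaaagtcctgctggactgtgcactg
Cyp2b9 and Cyp2b13 were identical at 248 of 250 positions (99.2%). Either one matched Cyp2b10 at 182 of 260 aligned positions (70.0%). Of this pair Cyp2b9 was called and Cyp2b13 was not, and the difference between their responses was not tested.

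Cyp3a11, the main cytochrome of the PXR response in mouse liver, measured 9.59, 10.34 and 9.99 in the controls and 10.97, 11.48 and 10.92 with PFOS. The groups did not overlap, and the rise of 1.15 ± 0.24 (SE; adjusted p = 0.046, limma) was 2.22-fold. Cyp3a44, a relative that is also more abundant in females, measured 3.73, 3.74 and 4.53 in the controls and 5.58, 6.15 and 5.54 with PFOS, a difference of 1.76 ± 0.37 (SE; adjusted p = 0.047, limma). Both calls were near the threshold and were lost without 5 and 6 of the 6 arrays, left out one at a time. Cyp2c29, a further target of CAR, measured 12.38, 12.60 and 12.73 in the controls and 13.37, 13.53 and 13.02 with PFOS. Its groups were also separate, but the difference of 0.74 ± 0.18 (SE) was not called (adjusted p = 0.0946, limma). Without PFOS replicate 3 it was 0.88 and was called (adjusted p = 0.0465, limma). Cyp2a5, a coumarin hydroxylase, measured 5.96, 6.17 and 5.77 in the controls and 6.73, 7.38 and 5.74 with PFOS, with replicate 3 at the control level.

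Among conjugating enzymes and pumps, Gstm3, a glutathione transferase with close paralogues, measured 4.68, 5.15 and 5.78 in the controls and 9.59, 8.06 and 7.75 with PFOS. All PFOS arrays were well above the controls, and the difference was 3.26 ± 0.65 (SE; adjusted p = 0.0415, limma), though the call was lost without 5 of the 6 arrays left out in turn. Abcc3, which exports conjugates into the blood, measured 9.83, 10.19 and 10.33 in the controls and 11.07, 11.08 and 10.90 with PFOS. This was a 1.87-fold rise of 0.90 ± 0.13 (SE; adjusted p = 0.00645, limma) that no left-out array removed. The call was lost in the fits to the 6 compared and to the 9 low-fat arrays (highest adjusted p = 0.174, limma). Aldh1a7, an aldehyde dehydrogenase named after its values were seen, rose by 0.96 ± 0.18 (SE; adjusted p = 0.0358, limma), also a call lost without 5 of the 6. Gstt3, another transferase named here after its values were seen, measured 6.68, 7.06 and 7.27 in the controls and 9.14, 8.92 and 7.24 with PFOS. Like Cyp2b13 and Cyp2a5 it was at the control level on replicate 3, and its difference of 1.43 was called without that array (2.03, adjusted p = 0.00472, limma) and not with it (adjusted p = 0.127).

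**Figure D1:**
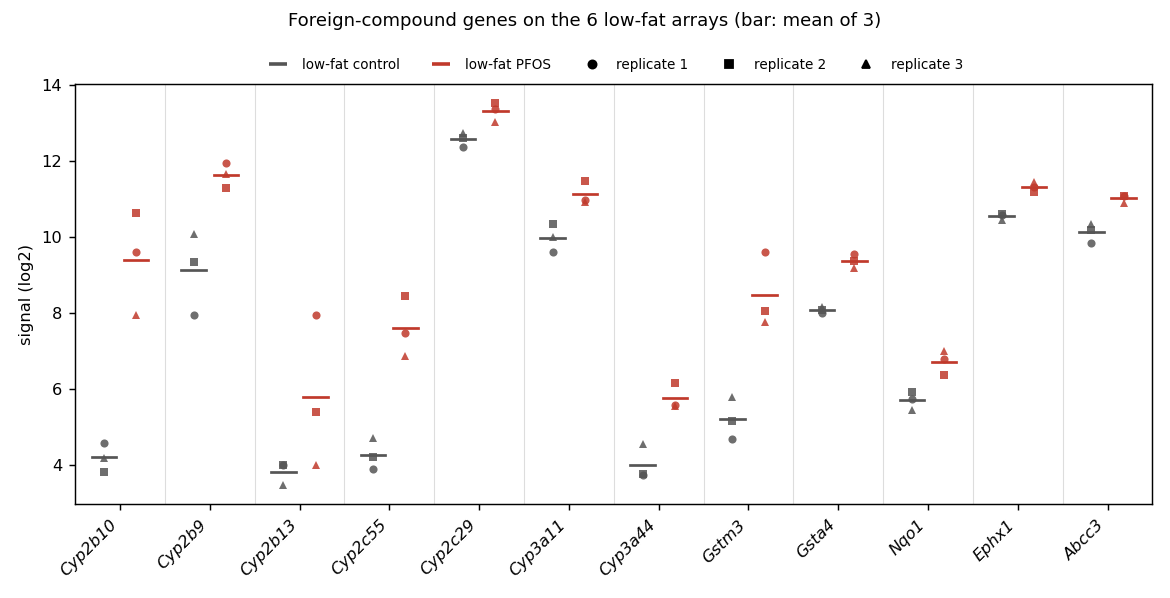
Signal (log2) of 12 genes of foreign-compound metabolism on the 6 low-fat arrays. Grey marks are controls and red marks PFOS, the shape gives the replicate and the bar the mean of 3 arrays. Cyp2b10 lies at 3.81 to 4.58 in the controls and 7.94 to 10.63 with PFOS, and PFOS replicate 3 is the lowest PFOS array for Cyp2b10, Cyp2b13, Cyp2c55 and Gstm3.

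Of 30 listed NRF2 targets 24 were measured, 3 rose (12.5%, against 0.361% of all genes), 0 fell, and the median difference was 0.31. Gsta4, a glutathione transferase that clears the lipid peroxidation product hydroxynonenal, measured 7.99, 8.07 and 8.14 in the controls and 9.54, 9.36 and 9.19 with PFOS. It varied little within either group, and its 2.46-fold rise of 1.30 ± 0.14 (SE; adjusted p = 0.00115, limma) had the lowest adjusted p of the named genes. Ephx1, the microsomal epoxide hydrolase and also a known CAR target, measured 10.59, 10.61 and 10.44 in the controls and 11.31, 11.19 and 11.46 with PFOS, a rise of 0.77 ± 0.11 (SE; adjusted p = 0.00683, limma). Nqo1, the quinone reductase, measured 5.73, 5.91 and 5.45 in the controls and 6.77, 6.35 and 7.0 with PFOS, a difference of 1.01 ± 0.20 (SE; adjusted p = 0.0415, limma). Ephx1 and Gsta4 kept their calls with any single array left out, and Nqo1 lost its call in 5 of 6 cases (0.86, adjusted p = 0.0789 without PFOS replicate 3). Ephx1, unlike Gsta4, lost its call in the fits to the 6 compared and to the 9 low-fat arrays.

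The other classical members of that list showed less. Gclc, the catalytic subunit of glutathione synthesis, differed by 0.32 (adjusted p = 0.41, limma), and Srxn1, the sulfiredoxin, by -0.04 (adjusted p = 0.948). The core of the antioxidant response element that NRF2 binds is written TGACNNNGC. It was searched on both strands, from 250 bases before the start of transcription to 50 bases after it. It occurred in 13.99% of 27025 RefSeq promoters. It occurred in 10 of 25 promoters of the NRF2 list and in 8 of the 63 promoters found for the 81 genes that rose (12.7%). It occurred in 3 of the 10 promoters found for the genes that fell (30%) and in 4 of 43 of the CAR and PXR list (9.3%). The letters were not found in those of Nqo1 or Ephx1. No promoter was found for Gsta4, and sites further upstream were not searched. A repeat of 2 AGGTCA sites with 1 base between them, the form bound by PPARA, occurred in 13 of the 27025 promoters (0.048%). It was found in 0 of those of called genes, of the NRF2 list and of the CAR and PXR list. So rare an exact match cannot show whether called genes hold such sites.

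Targets of the aryl hydrocarbon receptor and the receptor genes themselves gave no call. Of 7 measured targets 0 were called, with a median of 0.02. Cyp1a1 measured 4.40, 4.37 and 4.57 in the controls and 4.13, 4.54 and 4.73 with PFOS, and Cyp1a2, which is abundant in liver, differed by -0.11 (95% interval -0.61 to 0.39). Of 20 nuclear receptors and partners 0 were called. Nr1i3, which encodes CAR, measured 11.09, 11.22 and 10.86 in the controls and 11.22, 11.04 and 10.55 with PFOS. Nr1i2, which encodes PXR, differed by 0.31 (95% interval -0.04 to 0.66), and Ppara by -0.11 (95% interval -0.36 to 0.14). The largest differences of the group were those of Pparg, 0.87 (adjusted p = 0.296, limma), and of the coactivator Ppargc1a, -0.82 (adjusted p = 0.0844), and neither was called.

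Several of the larger rises belonged to no pathway list. Ctse, an intracellular aspartic protease of immune and stomach cells, measured 4.69, 4.33 and 4.40 in the controls and 6.31, 6.41 and 7.65 with PFOS. Serpinb1a, an inhibitor of neutrophil proteases, measured 4.01, 4.71 and 4.45 in the controls and 5.96, 6.56 and 7.41 with PFOS. In both genes replicate 3 was the highest array, and the differences were 2.32 ± 0.42 and 2.25 ± 0.36 (SE; adjusted p = 0.0272 and 0.0145, limma). The call of Ctse was lost when any 1 of the 6 arrays was left out, with 1.89 and an adjusted p of 0.0502 without PFOS replicate 3. Serpinb1a lost its call without control replicate 1 or 3 and kept it without PFOS replicate 3 (1.87, adjusted p = 0.0234, limma).

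Krt23, a keratin placed here among the bile duct genes, measured 5.83, 5.62 and 6.25 in the controls and 7.53, 7.94 and 8.77 with PFOS. Its difference of 2.18 ± 0.29 (SE; adjusted p = 0.00391, limma) kept its call with any single array left out and lost it in the fit to the 6 compared arrays. The other 5 measured bile duct genes were not called. Krt19, a defining marker, measured 4.11 to 4.35 in the controls and 4.21 to 5.01 with PFOS, near the array median. The summed signal of the 6 was 7.47 to 7.57 in the controls and 8.38 to 9.14 with PFOS. Krt23 was the one member called (16.7%, against 0.361% of all genes).

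Slc35f2, a solute carrier, measured 5.06, 5.89 and 5.88 in the controls and 7.35, 7.70 and 7.52 with PFOS, a difference of 1.91 ± 0.28 (SE; adjusted p = 0.00683, limma). Slc18a1, a vesicular monoamine transporter, measured 5.61, 5.30 and 5.40 in the controls and 6.56, 6.77 and 7.08 with PFOS, a difference of 1.37 ± 0.16 (SE; adjusted p = 0.00192, limma). Both were separate on all arrays and lost their call in 1 of 15 settings, the fit to the compared groups only. Slc39a4, the zinc importer, rose by 1.34 ± 0.25 (SE; adjusted p = 0.0296, limma). Alpl, the tissue-nonspecific alkaline phosphatase, measured 7.97, 7.71 and 7.73 in the controls and 8.75, 8.93 and 9.20 with PFOS. Its rise of 1.16 ± 0.16 (SE; adjusted p = 0.00552, limma) was 2.23-fold. Zfp992, a zinc finger gene, rose by 1.98 ± 0.38, Micu2, a gatekeeper of mitochondrial calcium uptake, by 1.24 ± 0.21, and Flacc1 by 1.47 ± 0.29 (SE; adjusted p = 0.0339, 0.0145 and 0.041, limma). With the arrays left out in turn, the call was lost for Slc39a4 in 6 of 6 cases, for Zfp992 and Flacc1 in 5 each and for Micu2 in 3.

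Further rises are named here after their values were seen. Aox1, an aldehyde oxidase of drug metabolism, measured 8.37, 8.01 and 8.02 in the controls and 9.24, 8.98 and 9.17 with PFOS. Cisd3, an iron-sulfur protein of mitochondria, measured 8.06, 8.02 and 7.97 in the controls and 8.94, 8.75 and 8.90 with PFOS. Their groups were tight and well separated, with rises of 1.0 ± 0.14 and 0.85 ± 0.11 (SE; adjusted p = 0.00552 and 0.00391, limma). The mitochondrial chaperone Trap1 rose by 0.99, the hydroxyacid-oxoacid transhydrogenase Adhfe1 by 0.86 and the malate dehydrogenase Mdh2 by 0.60. The phospholipase Pla2g6 rose by 0.93, the monoacylglycerol hydrolase Abhd6 by 1.12 and the fatty acid elongase Elovl1 by 0.72. The extracellular sulfatase Sulf2 rose by 0.90, the kinase Plk2 by 0.93 and the receptor of double-stranded RNA Tlr3 by 0.85. The adjusted p of these 9 genes ran from 0.00595 (Pla2g6) to 0.0387 (Tlr3). Aox1, Cisd3 and Pla2g6 kept their calls with any single array left out, while Mdh2 and Elovl1 lost theirs in all 6 cases and the other 6 in 2 to 5. In the fit to the 6 compared arrays all of these calls were lost.

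The falls were fewer. Cyp17a1, the steroid hydroxylase that leads to androgens, measured 8.37, 8.49 and 8.81 in the controls and 6.59, 7.16 and 6.33 with PFOS. All PFOS arrays were below the controls, and the fall of -1.86 ± 0.31 (SE; adjusted p = 0.0145, limma) left a level 3.64-fold lower. Snord35b, a small nucleolar RNA named after its values were seen, fell by more, with 7.63, 7.87 and 7.82 in the controls and 5.15, 5.30 and 6.91 with PFOS (difference -1.99, adjusted p = 0.046, limma). Avpr1a, the vasopressin receptor of hepatocytes, measured 6.75, 6.61 and 7.14 in the controls and 5.89, 5.88 and 5.29 with PFOS, a difference of -1.15 ± 0.21 (SE; adjusted p = 0.0296, limma). Left-out arrays ended the call of Avpr1a in 6 of 6 cases, that of Snord35b in 5 and that of Cyp17a1 in 3.

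Smaller falls were measured at high signal. Mpc1, a subunit of the carrier that brings pyruvate into mitochondria, measured 11.78, 12.05 and 11.81 in the controls and 11.38, 10.99 and 11.26 with PFOS. Vkorc1, the vitamin K epoxide reductase, measured 10.98, 10.99 and 10.71 in the controls and 10.17, 10.31 and 10.51 with PFOS. The differences were -0.67 ± 0.14 and -0.56 ± 0.12 (SE; adjusted p = 0.046 for both, limma), and the calls were lost without 6 and 5 of the 6 arrays left out in turn. The other named falls were those of Ptma (-0.65), Vps37a (-0.65), Nectin1 (-0.60), Dcaf1 (-0.52), Trim56 (-0.69), Tmem235 (-0.74), Igtp (-0.80) and Defa21 (-0.88). Their adjusted p ran from 0.0272 (Tmem235) to 0.046 (Igtp). Vps37a, Nectin1 and Igtp lost their calls without any 1 of the 6 arrays, Ptma, Dcaf1 and Defa21 without 5 of them and Trim56 and Tmem235 without 4. Centring the arrays on their medians also ended the calls of Ptma, Vps37a, Nectin1, Dcaf1 and Igtp.

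Of the 37 lower probes the largest falls were at probes with no gene in the annotation. Probe 17550576 measured 7.92, 9.52 and 9.31 in the controls and 4.46, 5.39 and 7.28 with PFOS, and probe 17532629 measured 7.98, 9.68 and 9.62 against 4.51, 6.05 and 7.57. Their differences were -3.21 ± 0.64 and -3.05 ± 0.63 (SE; adjusted p = 0.0416 and 0.046, limma). The order of the arrays was the same in both, and control replicate 1 was the lowest control at 17 of the 20 unnamed lower probes. At 3 of the 20 the signal lay within 0.05 log2 units of that of another on all 6 arrays, so they are not independent measurements.

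**Figure D2:**
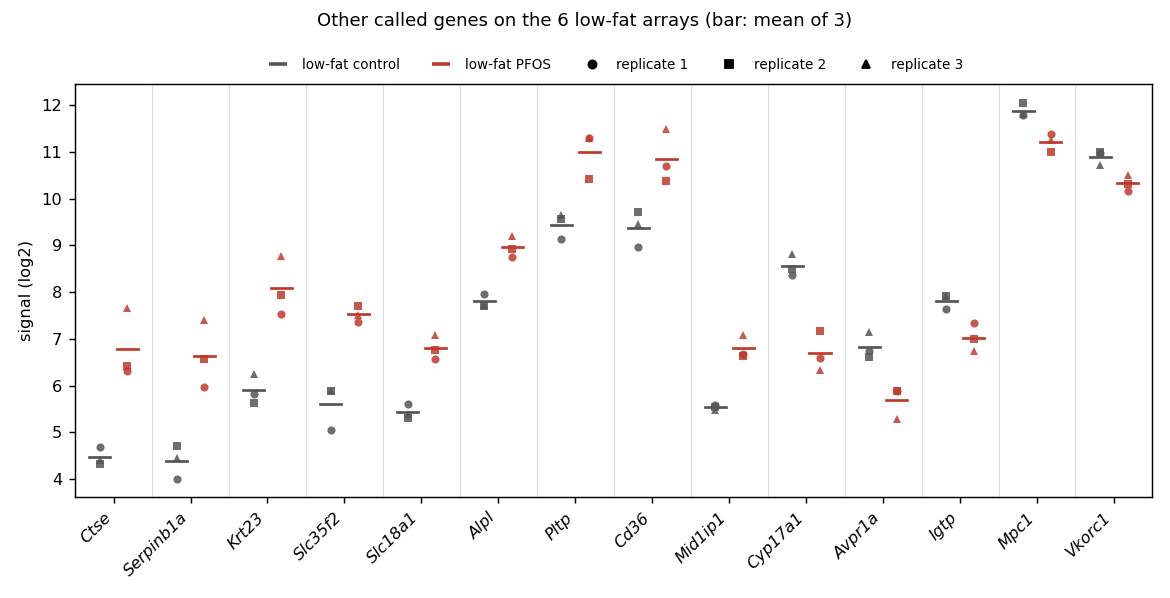
Signal (log2) of 14 called genes outside the drug-metabolising group on the 6 low-fat arrays, with 9 rises on the left and 5 falls on the right. Grey marks are controls, red marks PFOS, shapes the replicates and bars the mean of 3 arrays, and in no gene do the groups overlap. PFOS replicate 3 is the highest array for Ctse (7.65), Serpinb1a (7.41) and Krt23 (8.77).

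Targets of PPARA varied widely between the PFOS arrays. Of 29 listed peroxisomal targets 23 were measured and 1 rose, and of 35 other targets 29 were measured and 1 rose, with 0 falls and medians of 0.25 and 0.35. These are 4.35% and 3.45% of the measured members, against 0.361% of all genes, each from a single gene. The calls were Cyp4a12a and Cd36. On the single PFOS arrays the median against the control mean was 0.09, 0.05 and 0.60 for the peroxisomal targets and 0.15, 0.15 and 0.74 for the others. Replicate 3 was the highest of the 6 arrays for 19 of 23 and 22 of 29 of them, against 19.3% of all genes. Without that array the medians were 0.07 and 0.14, and 1 and 0 members rose.

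Cyp4a12a, a male-predominant fatty acid omega-hydroxylase, measured 9.16, 9.24 and 8.80 in the controls and 10.21, 10.05 and 10.04 with PFOS. It was as high on replicates 1 and 2 as on replicate 3, with a 2.05-fold rise of 1.03 ± 0.14 (SE; adjusted p = 0.00391, limma). Cd36, which takes up long-chain fatty acids, measured 8.97, 9.72 and 9.45 in the controls and 10.69, 10.38 and 11.49 with PFOS. The groups were separate and the rise of 1.47 ± 0.31 (SE; adjusted p = 0.046, limma) was 2.78-fold, but the call was lost when any single array was left out. Cyp4a14, the omega-hydroxylase most used as a read-out of PPARA in mice, measured 13.11, 12.94 and 12.86 in the controls, and 13.02, 13.24 and 13.46 with PFOS. Its difference of 0.27 (95% interval -0.00477 to 0.54) was not called.

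The members with the largest differences were far higher on replicate 3 than on the other PFOS arrays. Cidea, a lipid droplet protein that is nearly silent in lean liver, measured 4.09, 4.07 and 4.25 in the controls and 5.06, 4.37 and 10.99 with PFOS, against 11.02, 9.94 and 10.86 on high-fat PFOS arrays. Sptlc3, a subunit of serine palmitoyltransferase, which starts sphingolipid synthesis, measured 3.73, 3.55 and 3.12 in the controls, 4.49, 4.44 and 9.66 with PFOS and 9.53, 9.61 and 8.88 on high-fat PFOS arrays. In both genes the third low-fat PFOS array was at the high-fat PFOS level and the first and second were near the controls. With this spread the differences of 2.67 ± 1.48 and 2.73 ± 1.20 (SE) were not called (adjusted p = 0.505 and 0.376, limma), and without replicate 3 they were 0.58 and 1.0.

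In genes of fatty acid handling replicate 3 was again the highest array, while the order of replicates 1 and 2 differed. Acot2, a mitochondrial acyl-CoA thioesterase, measured 10.47, 10.39 and 10.49 in the controls and 11.45, 10.91 and 12.93 with PFOS. Ehhadh, the bifunctional enzyme of peroxisomal oxidation, measured 11.66, 11.31 and 11.29 in the controls and 11.28, 11.64 and 13.17 with PFOS. Pdk4, the kinase that shuts pyruvate dehydrogenase, measured 6.72, 7.61 and 6.57 in the controls and 7.81, 7.45 and 10.55 with PFOS. None was called (adjusted p = 0.22, 0.575 and 0.442, limma), and without replicate 3 the differences were 0.73, 0.04 and 0.66. Acot1, the cytosolic relative of Acot2, measured 9.51, 9.36 and 9.27 against 9.78, 9.95 and 11.47, so all PFOS arrays were above the controls, by 0.48 without replicate 3. Replicate 3 was also the highest PFOS array for Cidec, Lpl and, named after their values were seen, Fabp4 and Cyp4a31. In the order Cidec, Fabp4, Cyp4a31 and Lpl, they reached 10.30, 9.13, 12.39 and 9.54 on replicate 3, where the other PFOS arrays lay between 7.31 and 8.99, 6.17 and 6.36, 9.90 and 10.87, and 6.89 and 7.18. Without replicate 3 the differences of these 4 were 0.99, 0.40, 0.36 and 0.65, and none was called with or without it.

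**Figure D3:**
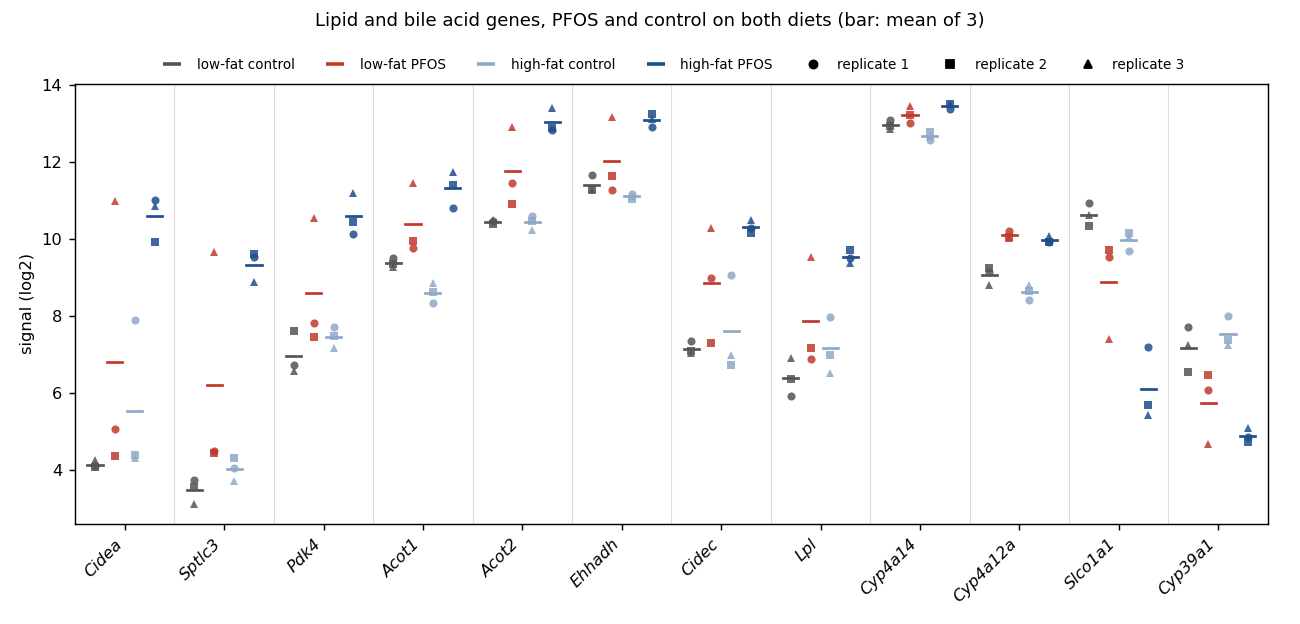
Signal (log2) of 12 genes of lipid and bile acid metabolism in 4 groups of 3 arrays: low-fat control (grey), low-fat PFOS (red), high-fat control (light blue) and high-fat PFOS (dark blue). Shapes give the replicate and bars the mean of 3 arrays. The red triangle, low-fat PFOS replicate 3, lies with the high-fat PFOS arrays for Cidea (10.99) and Sptlc3 (9.66), while for Cyp4a12a all 3 red marks lie between 10.04 and 10.21.

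Of 20 measured genes of mitochondrial fatty acid oxidation 0 were called, with a median of 0.12. Cpt1a, which gates entry of fatty acids into mitochondria, differed by -0.15 (95% interval -0.44 to 0.14) and Acadm, the medium-chain dehydrogenase, by 0.25 (95% interval -0.05 to 0.56). Of 23 genes of lipid droplets and lipases 3 rose, all of them lipases, but with single arrays left out the count was 0 to 2. Pnpla2, the enzyme that takes the first fatty acid off stored triglyceride, measured 8.92, 9.19 and 8.95 in the controls and 9.84, 9.75 and 9.92 with PFOS. It rose evenly on the 3 PFOS arrays, by 0.82 ± 0.13 (SE; adjusted p = 0.0145, limma). Lipe, the hormone-sensitive lipase, rose by 0.57 ± 0.11 (SE; adjusted p = 0.0416, limma) and Ces1e, a carboxylesterase with close paralogues, by 0.67 ± 0.14 (SE; adjusted p = 0.046, limma). Leaving out single arrays ended the call of Ces1e in 6 of 6 cases, that of Lipe in 5 and that of Pnpla2 in 3, and quantile normalization ended those of Ces1e and Lipe. Plin2, the coat protein whose level follows stored fat, measured 10.71, 10.39 and 11 in the controls and 10.79, 10.34 and 11.29 with PFOS, with full overlap.

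In fatty acid and triglyceride synthesis 1 of 26 measured genes rose (3.85%, against 0.361% of all genes) and 0 fell, with a median of 0.09. Mid1ip1, a partner that assembles acetyl-CoA carboxylase into its active polymer, measured 5.59, 5.55 and 5.48 in the controls and 6.68, 6.64 and 7.08 with PFOS, a difference of 1.26 ± 0.19 (SE; adjusted p = 0.00853, limma). Thrsp, a paralogue of Mid1ip1 named after its values were seen, measured 8.24, 8.98 and 7.70 in the controls and 10.25, 9.98 and 9.76 with PFOS, and its difference of 1.69 ± 0.39 (SE) was not called (adjusted p = 0.0748, limma). Fasn and Scd1, the fatty acid synthase and the desaturase, differed by 1.01 and 0.13 (adjusted p = 0.441 and 0.848, limma). Srebf1, which drives the pathway, differed by 0.90 (adjusted p = 0.125).

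None of the 16 measured enzymes of cholesterol synthesis was called. In 8 all PFOS arrays were above all controls (50%, against 9.21% of all genes), and the median was 0.37. Nsdhl and Lss, with the largest differences, measured 6.27 to 6.92 and 5.34 to 5.82 in the controls and 7.16 to 7.86 and 6.22 to 6.37 with PFOS (adjusted p = 0.288 and 0.162, limma). The median on the PFOS arrays was 0.35, 0.17 and 0.67 above the control mean, with replicate 3 the highest, and 0.21 over the group without it. Among 18 genes of lipoproteins 1 rose (5.56%, against 0.361% of all genes). Pltp, which transfers phospholipid between lipoproteins, measured 9.13, 9.56 and 9.64 in the controls and 11.30, 10.42 and 11.29 with PFOS. Its 2.95-fold rise was 1.56 ± 0.30 (SE; adjusted p = 0.0358, limma). The call was lost without 5 of the 6 arrays left out in turn (1.42, adjusted p = 0.061 without PFOS replicate 3). The apolipoproteins lay the other way without a call: 6 of 11 had all PFOS arrays below all controls, against 7.36% of all genes, with a median of -0.12. Apoa4 measured 12.78, 13.05 and 12.64 in the controls and 12.38, 12.09 and 10.97 with PFOS (adjusted p = 0.262, limma), and its difference of -1.01 was -0.59 without replicate 3.

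Bile acid genes gave 0 calls of 19. Cyp7a1, the rate-limiting enzyme of bile acid synthesis, measured 10.32, 11.40 and 9.11 in the controls and 9.63, 10.48 and 7.5 with PFOS. The control arrays differed among themselves by more than the group means did. Slco1a1, an organic anion importer of male liver, measured 10.94, 10.35 and 10.62 in the controls and 9.55, 9.72 and 7.41 with PFOS, and Cyp39a1, an oxysterol hydroxylase, 7.71, 6.54 and 7.24 against 6.08, 6.46 and 4.67. Replicate 3 was the lowest array in all 3 genes, and 11 of the 19 bile acid genes were lowest there, against 19.9% of all genes. None of the 3 was called (adjusted p = 0.288 for Slco1a1, 0.328 for Cyp39a1 and 0.646 for Cyp7a1, limma). Without replicate 3 the differences went from -1.74 to -1.0 for Slco1a1, from -1.43 to -0.89 for Cyp39a1 and from -1.07 to -0.22 for Cyp7a1, and the median of the list from -0.11 to 0.01. Further genes named after their values were seen did the same: Slco1a4 measured 8.15, 7.90 and 9.0 against 7.80, 8.24 and 4.02, and Hsd3b5, a male-specific steroid enzyme, 8.78, 8.74 and 8.52 against 7.0, 7.83 and 3.83. Without replicate 3 their differences of -1.66 and -2.46 were -0.33 and -1.26.

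Genes that differ between the sexes moved in both directions. Of 17 measured male-predominant genes, Cyp4a12a rose and 0 fell, with a median of -0.13. Of 21 measured female-predominant genes, Cyp2b9 and Cyp3a44 rose and Cyp17a1 fell, with a median of 0.29. The shares higher were 5.88% of the male and 9.52% of the female list, against 0.361% of all genes. The share lower in the female list was 4.76%, against 0.0766%. The genes that rose also belong to the CAR, PXR or PPARA lists, so these counts repeat calls already given. Mup20, an abundant male urinary protein, differed by -0.13 (95% interval -0.41 to 0.14).

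The remaining lists held few calls. Of 24 interferon-stimulated genes 1 fell (4.17%, against 0.0766% of all genes). This was Igtp, an interferon-induced GTPase, which went from 7.63, 7.91 and 7.92 to 7.33, 6.99 and 6.75. Its difference was -0.80 ± 0.16 (SE; adjusted p = 0.046, limma), and the call was lost when any array was left out. Of 29 complement and coagulation genes 0 were called. Their median on the PFOS arrays was 0.00, 0.03 and -0.33, with 0.045 for the group without replicate 3, and Mbl1, a lectin that starts the complement cascade, differed by -0.61 (adjusted p = 0.114, limma). There were also 0 calls among the measured genes of the acute phase (25), endoplasmic reticulum stress (24), heat shock and proteasome (25), cell cycle (25), respiratory chain (27), urea cycle and amino acids (16), glucose metabolism (15), p53 targets (12) and the circadian clock (17). Of 18 organic ion transporters Abcc3 was the one called (5.56%, against 0.361% of all genes). There were 0 calls for sterol uptake and export (12), immediate-early genes (17), pericentral (14) and periportal (10) zonation, sphingolipids (21), exocrine pancreas (9) and erythroid cells (2). Mcm2 and Hspb1 had the lowest adjusted p among these. Hspb1, a small heat shock protein, measured 5.33, 5.65 and 5.89 in the controls and 6.39, 7.37 and 7.72 with PFOS (difference 1.54, adjusted p = 0.0748, limma). Mcm2, a helicase subunit of DNA replication, measured 4.95, 5.03 and 5.04 against 5.79, 5.63 and 6.00 (difference 0.80, adjusted p = 0.0739).

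**Figure D4:**
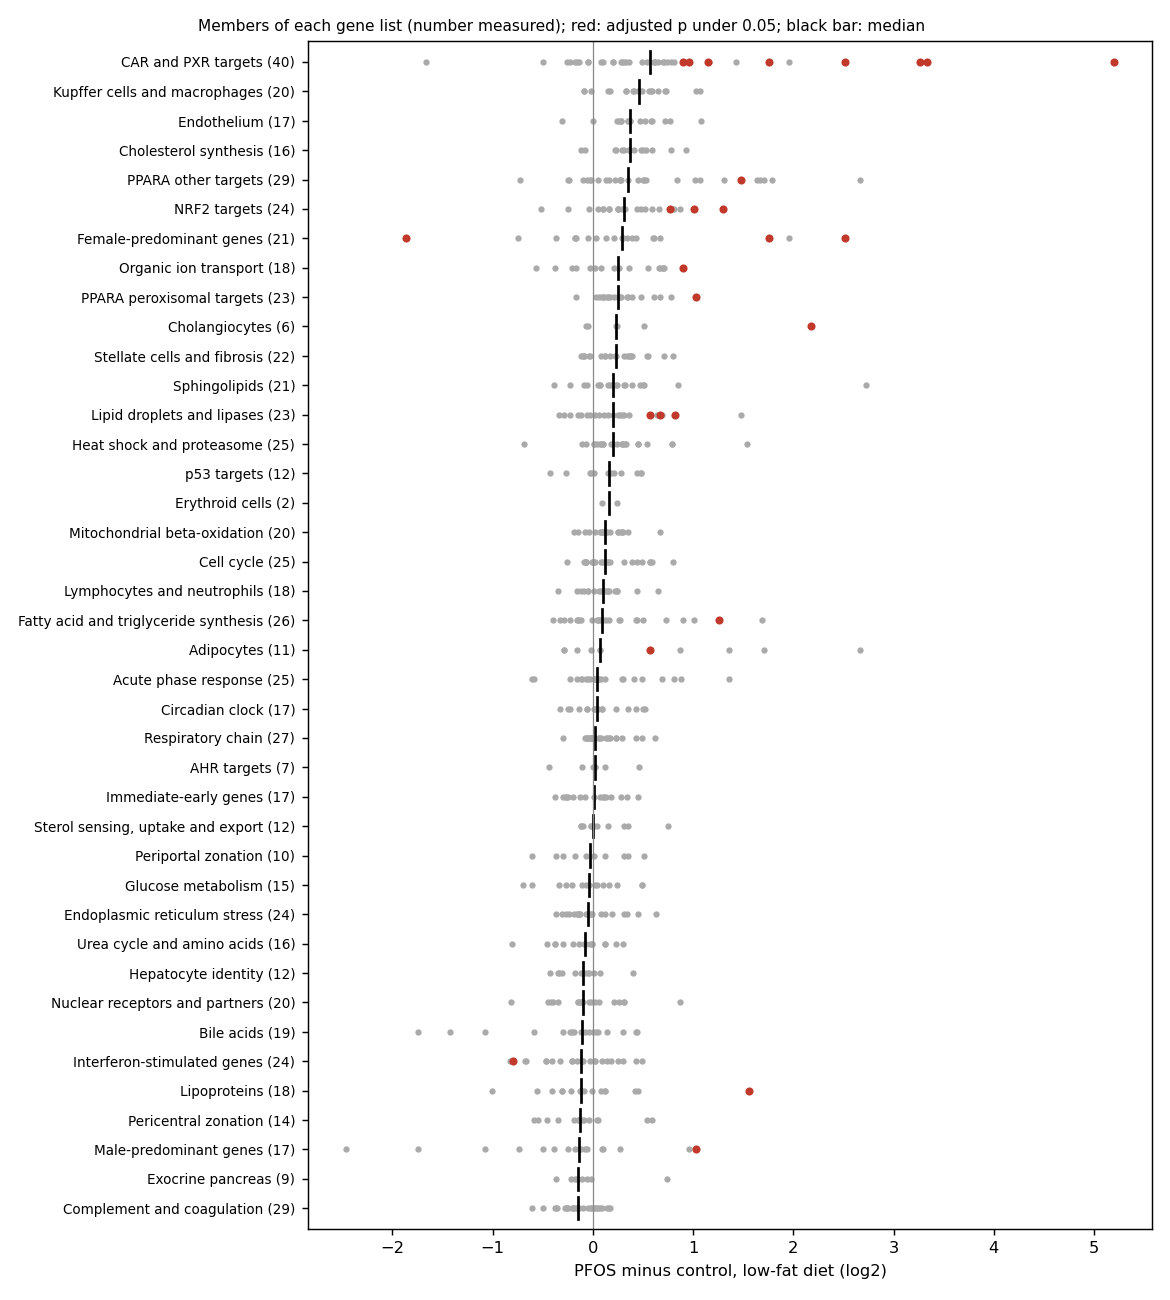
Difference between PFOS and control on the low-fat diet (log2) for every measured member of the 40 gene lists, with the number measured after each name. Red points were called at an adjusted p under 0.05, grey points were not, and the black bar is the list's median. The CAR and PXR list has the highest median (0.57) and the largest member, Cyp2b10 at 5.20.

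Marker lists of Kupffer, endothelial and stellate cells held no called gene, and their medians were above 0. Of 20 Kupffer cell and macrophage markers 0 were called, with a median of 0.46. The difference was above 0 in 17, and in 6 every PFOS array lay above every control, against 9.21% of all genes. The summed signal of the 20 was 11.24, 11.26 and 11.86 in the controls and 12.28, 11.92 and 11.82 with PFOS. Control replicate 3 thus lay above PFOS replicate 3. Cd68, a lysosomal protein of macrophages, measured 6.70, 7.19 and 7.90 against 8.73, 8.33 and 7.95, and Vsig4, a complement receptor of resident Kupffer cells, 7.57, 7.34 and 8.11 against 9.16, 8.68 and 8.27 (adjusted p = 0.154 and 0.257, limma). Control replicate 3 was close to the PFOS arrays in both. Of 17 endothelial markers 0 were called, with a median of 0.37. The difference was above 0 in 16, and in 8 every PFOS array lay above every control, against 9.21% of all genes. The summed signal was 12.01, 11.90 and 12.34 against 12.69, 12.49 and 12.26. Lyve1, the hyaluronan receptor of sinusoidal endothelium, measured 7.30, 7.28 and 8.46 against 9.11, 8.37 and 8.79 (adjusted p = 0.141, limma). The 22 stellate cell and matrix genes had a median of 0.23 and a summed signal of 11.81 to 12.06 against 11.96 to 12.21.

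Lymphocyte and neutrophil markers, 18 measured, had a summed signal of 8.16 to 8.24 in the controls and 8.25 to 8.42 with PFOS. Of 11 adipocyte genes Lipe was the one called (9.09%, against 0.361% of all genes). The defining marker Adipoq stayed at 2.07 to 2.53 on the control and PFOS arrays of both diets. The part of these cells in the rises of Ctse, Serpinb1a and Pltp was not tested. In whole liver, more or fewer cells of a type and more or less RNA per cell cannot be told apart.

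**Figure D5:**
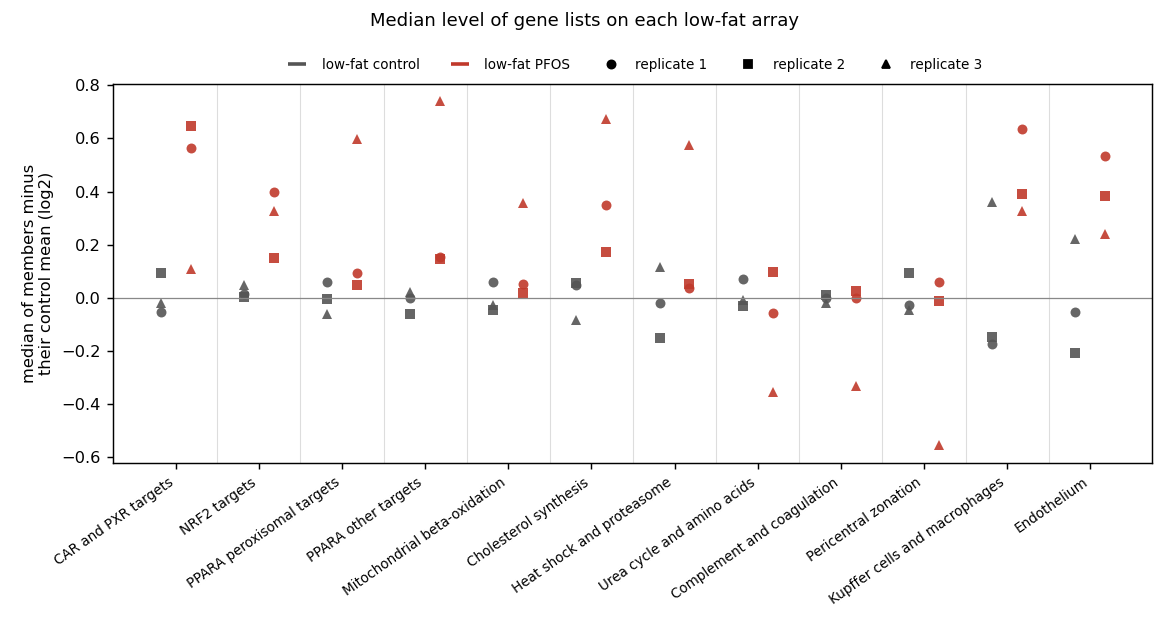
Median over the members of 12 gene lists on each low-fat array, each member taken relative to its mean over the 3 controls (log2). Grey marks are controls, red marks PFOS, and shapes the replicates. PFOS replicate 3 lies highest for the PPARA lists (0.60 and 0.74) and below the other PFOS arrays for the CAR and PXR list (0.11), while Kupffer and endothelial markers are highest on replicate 1 (0.64 and 0.53).

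The high-fat diet offered a second PFOS group with controls of its own. There PFOS changed 352 probes (1.02%). Of the 134 probes called on the low-fat diet 52 were also called on the high-fat diet in the same direction, which is 38.8% of the low-fat and 14.8% of the high-fat calls. The sign agreed for 130 of the 134, with a median high-fat difference of 0.65 over the 97 higher probes and -0.72 over the 37 lower ones. The test of the difference itself, the interaction of diet with PFOS, called 0 probes (smallest adjusted p = 0.524, limma), with 2192 probes (6.36%) at an unadjusted p under 0.05. It called 83 without low-fat PFOS replicate 3 and the third high-fat PFNA array, which also stood apart. This pair was chosen after seeing the data. Of the 83, 0 were among the 134. The 134 are 0.389% of all probes, so an overlap of 0 says little about them.

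Single genes illustrate both outcomes. Krt23 measured 5.37, 5.30 and 6.14 in high-fat controls and 8.60, 8.94 and 8.92 on high-fat PFOS arrays, so it was separate on both diets. Cyp2b10 measured 3.92, 3.88 and 4.49 in high-fat controls and 7.26, 9.28 and 8.91 on high-fat PFOS arrays. Cyp2b9, in contrast, was already at 11.68, 11.52 and 11.96 in high-fat controls and measured 12.10, 11.36 and 12.36 with PFOS, yet the interaction of -2.30 ± 0.59 (SE) was not called (adjusted p = 0.664, limma). Cyp17a1 measured 8.52, 7.15 and 7.20 in high-fat controls and 7.47, 7.43 and 7.29 on high-fat PFOS arrays, with an interaction of 1.64 ± 0.44 (SE; adjusted p = 0.739, limma). The 3 smallest interaction p-values belonged to genes outside the low-fat calls, Sprr2d (1.45), Steap4 (-1.69) and Slc22a30 (-1.41), all at an adjusted p of 0.524.

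PFNA, a perfluorinated carboxylic acid where PFOS is a sulfonic acid, was mixed into the same low-fat diet in a further group of 3 arrays. With no dose in the labels, the compounds cannot be matched for dose. PFNA against PFOS called 0 probes (limma, smallest adjusted p = 0.998), and 1351 probes (3.92%) had an unadjusted p under 0.05. Both compounds were compared with the same control arrays, so only their own values are set side by side. Cyp2b10 measured 9.44, 10.34 and 9.91 with PFNA, and the difference from PFOS was 0.51 (95% interval -0.91 to 1.93). Gsta4 measured 9.43, 9.18 and 9.60 with PFNA, a difference of 0.04 (95% interval -0.26 to 0.34), and Krt23 7.64, 7.60 and 7.59, a difference of -0.47 (95% interval -1.08 to 0.14).

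Where the third PFOS array set the level the intervals were wide. Cidea measured 4.45, 4.47 and 5.13 with PFNA and differed from PFOS by -2.12 (95% interval -5.25 to 1.0). Cyp2b13 measured 5.61, 6.47 and 9.32 with PFNA and differed by 1.36 (95% interval -0.75 to 3.48), so the spread between arrays under either compound exceeded the difference between them. The genes with the smallest p in this comparison were the olfactory receptors Olfr1246 (0.77) and Olfr535 (0.63) and the adhesion protein Tns4 (0.52), all at low signal and none of them called.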

How the data were processed

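Liver RNA was isolated with Trizol and biotin-labelled for the arrays, per the labels' protocols. Each probe has 1 deposited value on each array. The submitters' processing notes name Transcriptome Analysis Console, with no version, as the tool the authors used. The deposited values were read as log2 signal from their range and skew. The sources used here do not give the background correction, normalization or summarization. Differences are relative to the authors' scaling.

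All 18 arrays entered 1 fit, with a mean for each group, in limma 3.58.1 in R 4.3.3 (12 residual and 5.21 prior degrees of freedom, no signal filter), and p-values were adjusted by Benjamini-Hochberg over 34472 probes. Errors are standard errors and intervals 95% intervals of that fit. The fit was tested on simulated data with independent probes, the same spread in every group and no deviating array. That test does not bear on an array that stands apart. The brightest of a gene's probes stood for the gene, and probes with several symbols named none. There were 23521 probes with 1 symbol, 1814 with several and 9137 with none. For arrays, their number limits the precision.

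The comparison and its 40 gene lists (795 genes, 710 measured) were chosen with earlier results of these data known. Named were the 20 largest rises and 20 largest falls among called genes, leaving out predicted genes and small RNAs, up to 6 called members of each list or the 2 largest if none was called, the leading genes of the PFNA and diet comparisons, and a list of genes of liver metabolism. Some of these are given in counts only, and not all of them were near no difference. Orm3 (1.36, and 2.30 without PFOS replicate 3), Got1 (-0.81), Acta2 (0.80) and Fgf21 (-0.73) were among them, none called. Genes outside the rule are marked, except the cell type markers Krt19 and Adipoq. Alternatives were other scalings, filters, variance models, sets of arrays and a replicate block. Protein sequences were not used here. RefSeq promoters were found for 63 of 81 higher and 10 of 17 lower genes.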

Additional observations from a re-analysis of the deposited data

Results flagged for a closer look

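Sprr2d, a gene of cornifying epithelium, lay in opposite directions on the 2 diets. On the high-fat diet PFOS minus control was 1.12, from 3.69, 3.27 and 2.82 in the controls to 4.36, 4.5 and 4.29 with PFOS, and all 3 PFOS arrays were above the controls. On the low-fat diet it was -0.32, from 4.06, 3.93 and 3.99 to 3.68, 3.41 and 3.92, and all 3 PFOS arrays were below. The interaction of 1.45 ± 0.29 (SE) was not called (adjusted p = 0.524, limma), and all signals lay near or below the median signal of the arrays, 4.45 to 4.59.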

How the results depend on the processing

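The counts of calls moved with the fit. With the 6 compared arrays alone limma called 5 higher and 1 lower probes, and with the 9 low-fat arrays 26 and 3. Quantile normalization gave 53 higher, median centring 159, the probes above the median signal 197 and 73, array weights 169 and 107, and trended robust moderation 148. Leaving out 1 array gave 20 to 119 higher and 2 to 141 lower probes. Without low-fat PFOS replicate 3 and high-fat PFNA replicate 3, an alternative chosen after seeing the data, there were 264 higher and 190 lower probes and 83 interaction calls. With the replicate number as a block there were 77 higher and 37 lower probes, 94 of the 134 among them. Same-numbered control and PFOS arrays did not deviate together from their group means (correlations -0.05, -0.06 and -0.03). With 3 arrays a group this does not exclude a pairing. PFNA against PFOS called 0 probes in every setting. The 2612 probes with all PFOS arrays above the controls became 4013 after centring, and the 2799 below became 1490, or 1350 among probes above the median signal.

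Among the named genes the sign turned only where the difference was near 0. For Cyp1a1 (0.02) it was -0.0313 with array weights and -0.11 without the pair of arrays, and -0.11 to 0.188 with single arrays left out. For Cyp1a2 (-0.11) it was 0.0636 with array weights, 0.18 without the pair and -0.327 to 0.18 with single arrays left out. For Nr1i3 (-0.12) it was 0.0733 without the pair and -0.262 to 0.0733 with single arrays left out. For Plin2 (0.11) it was -0.0141 with array weights, -0.135 without the pair and -0.135 to 0.34 with single arrays left out. For Scd1 (0.13) it was -0.00333 to 0.387 with single arrays left out, and for Srxn1 (-0.04) it was 0.03 after centring and -0.135 to 0.085 with single arrays left out. The cause of these changes was not tested. Signals near the array median have no measure of background here, so low levels and their folds are uncertain.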

Other observations

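PFOS replicate 3 ranked at an extreme of the 6 low-fat arrays for many members of several further gene groups. It was the highest array for 20 of 25 heat shock and proteasome genes and 22 of 27 genes of the respiratory chain, against 4289 of 22180 genes (19.3%). It was the lowest array for 22 of 29 complement and coagulation genes, 18 of 24 interferon-stimulated genes, 12 of 14 pericentral genes and 12 of 20 nuclear receptors and partners, against 4411 of 22180 (19.9%). Replicate 1 was the highest array for 14 of 20 Kupffer cell and 13 of 17 endothelial markers, against 3641 of 22180 genes, and replicate 2 for 19 of 40 CAR and PXR targets, against 3536. Lgr5, a receptor of pericentral hepatocytes, measured 5.66, 5.44 and 5.97 in the controls, 5.51, 5.14 and 4.66 with PFOS and 5.15, 4.28 and 4.93 on high-fat PFOS arrays. These are counts on single arrays, they have no replicate check, and their cause was not tested.

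Among acute phase genes, of which 0 of 25 were called, 2 are given for their spread. Saa2, a serum amyloid, measured 7.05, 8.07 and 8.63 in the controls and 8.47, 10.25 and 7.68 with PFOS. Lcn2, lipocalin, measured 6.06, 7.75 and 7.94 in the controls and 8.67, 9.02 and 6.14 with PFOS, so the third PFOS array was at the level of the lowest control.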
